A study of Mus musculus with 15 samples.

Results

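The liver transcriptome on the last 3 fetal days sampled was compared with that on the first 3 postnatal days sampled in C57BL/6 mice. The members are 6 of the 15 RNA-seq libraries of the series, chosen by age alone. Whole livers of embryos at E16.5, E17.5 and E18.5, with embryonic age counted from the vaginal plug, form the fetal side. Whole livers of pups at D1, D3 and D5 after birth form the postnatal side. All are of a single strain with no treatment or genetic change named in the labels, and each age has 1 library here, although the series' design text speaks of replicates. Neither the number of animals behind a library nor their sex is given in the sources used here. The 3 ages on each side therefore stand in for replicates, so every p-value measures the spread between these libraries, which includes any change from day to day. The 4 libraries of E12.5 to E15.5 and the 5 of W1 to W8 show where the 6 sit along development. Those of E12.5 to E15.5 also enter a test of the step at birth against the step before it, fitted to 10 libraries. All 15 enter an alternative fit in which the spread is shared.

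At birth the liver changes its fuel and its neighbours. The fetus draws glucose through the placenta and makes fat and cholesterol, while the newborn lives through a short fast and then on fat-rich milk, and its liver makes glucose and ketone bodies from amino acids, glycerol and fatty acids. The fetal liver is also the main site of red cell formation, which later moves to bone marrow and spleen. The glucocorticoid rise before birth and the glucagon surge at birth are known to switch on enzymes of gluconeogenesis and amino acid breakdown, and PPAR-alpha, a nuclear receptor for fatty acids, drives many genes of fat oxidation.

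Values are FPKM, fragments normalised to transcript length and library size, as the authors deposited them. Changes are differences of log2(FPKM + 1) between the mean of D1, D3 and D5 and the mean of E16.5, E17.5 and E18.5, so they understate the change of low genes. A gene rose or fell where limma's adjusted p was under 0.05. The estimated depth was 15800000 to 18900000 fragments per library, at which 3 fragments on 1000 bases correspond to 0.159 to 0.19 FPKM, and 12043 to 12760 genes lay over 1 FPKM in each library. Of markers of other organs, Cpa1, Prss2, Star, Cyp11b1, Ckm and Acta1 (pancreas, adrenal and muscle) summed to at most 1.82 FPKM per organ and Vil1 of the gut lay at or below 0.861, whereas Fabp2 of the gut reached 92.3 and the pancreatic elastase Cela1 reached 19.2. Apoa1, Apob and Ttr, made by hepatocytes, together gave 11950, 14330 and 20990 before birth and 31660, 30340 and 31130 after. The erythroid markers Klf1, Slc4a1 and Alas2 summed to 2614, 1522 and 976 and then to 558, 684 and 242. These shifts accompany every result below and their part in them was not tested, and fewer cells of a type and less RNA per cell cannot be told apart in bulk libraries. Genes of the X-inactivation transcript and of the Y chromosome moved with the comparison. Xist stood at 12.5, 32 and 21.3 FPKM in the fetal libraries and at 0.0517, 0.0566 and 0.314 in the postnatal ones, while Ddx3y went from 0.0425, 0.0433 and 1.2 to 10.7, 7.84 and 10.3. Sex and period therefore cannot be told apart in these 6 libraries. Base composition moved too. GC content was rank-correlated with a library's deviation from the gene's mean in the other 5 libraries. The correlation was 0.298 at E16.5 and -0.154 to 0.007 at the other 5 ages.

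Of 12698 genes tested, 771 rose, which is 6.07% of them, and 444 fell, which is 3.5%. The median change over all genes was -0.04. With the globin genes and Alas2 left out of the totals, 621 genes were higher and 1059 lower, the share of higher calls went from 63.5% to 37%, and the median change became -0.17. With Alb left out as well, the share was 38.3%. The adult globin estimates had failed at E16.5, those of Hba-a1 and Hba-a2 also at E17.5, and that of Alb at E18.5, D3 and D5. Each library was rescaled by the sum of its remaining genes, so the failed globin estimates did not enter that sum. Where Alb was not left out, it entered the sum at E16.5, E17.5 and D1 alone. Every one of the 770 risen and 443 fallen genes with a value in all 6 libraries had ranges that did not overlap. Among the 12690 tested genes with all 6 values, 19.1% had every postnatal library above every fetal one and 16.8% had every postnatal library below. The calls depended on single ages. All 771 and 444 kept their sign with each library left out in turn, but 96 and 38 kept their call each time. Without E17.5, 101 genes were higher and 38 lower, without E16.5 294 and 141, without E18.5 1324 and 1306, without D1 639 and 290, without D3 342 and 167, and without D5 308 and 111.

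**Figure D1:**
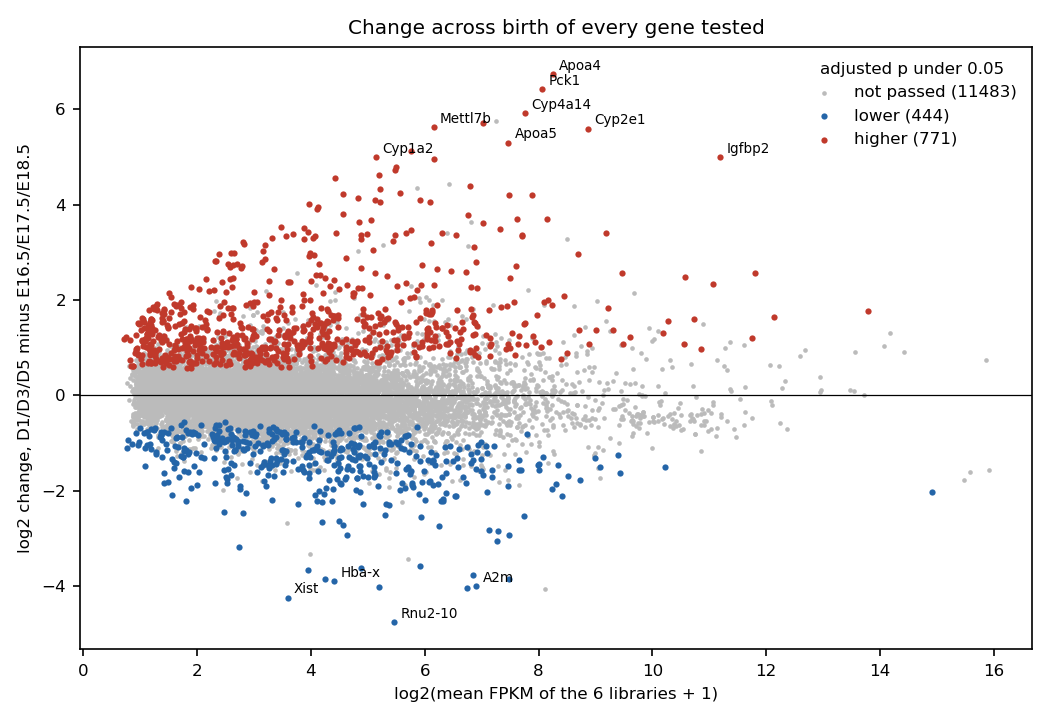
Log2 change across birth (vertical, postnatal minus fetal mean of log2(FPKM + 1)) against log2 of the mean FPKM of the 6 libraries plus 1 (horizontal), 1 point per gene tested. The 771 risen genes reach 6.73 (Apoa4) and the 444 fallen genes -4.75 (Rnu2-10), and some of the largest changes carry their symbol.

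Most of the risen genes were highest at D5. Of the 770, 523 were highest at D5, 169 at D1 and 78 at D3, and 428 rose at least 2-fold between E18.5 and D1. Some had begun before birth, since 146 were at least 2-fold higher at E18.5 than at E16.5 and E17.5. A further 2-fold rise between D1 and D5 was seen in 120. Among the 443 falls, 301 were lowest at D5, 186 fell at least 2-fold between E18.5 and D1, and 20 were already 2-fold lower at E18.5. The falls tended to go on: the libraries of W1 to W8 had a mean below the postnatal days in 326 of 443 and above them in 59. For the rises, the later mean lay above the postnatal days in 274 of 770 and below in 234, and it was back within or past the fetal range in 51.

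The gene with the largest rise was Apoa4 (chromosome 9, 46240844 to 46243458, build GRCm38), which encodes an apolipoprotein of triglyceride-rich lipoproteins. It stood at 1.45, 1.68 and 7.04 FPKM on the fetal days and at 1364, 279 and 166 on D1, D3 and D5, a change of 6.73 (SE 0.77, limma adjusted p = 0.00409). All 3 postnatal libraries were far above the fetal ones, and D1 was the highest. Pck1 (chromosome 2, 173153073 to 173159254), the cytosolic enzyme that commits oxaloacetate to glucose, went from 2.56, 3.76 and 11.9 to 424, 467 and 687, a change of 6.42 (SE 0.45, limma adjusted p = 0.000821). Unlike Apoa4 it went on climbing to D5. Apoa5, a neighbour of Apoa4 on chromosome 9 whose product promotes the clearance of plasma triglyceride, measured 1.6, 2.5 and 48.9 before birth and 533, 177 and 292 after, a change of 5.30. Cyp4a14, an omega-hydroxylase of fatty acids and a target of PPAR-alpha, measured 1.01, 1.17 and 39.6 and then 804, 194 and 248, a change of 5.92. In both, E18.5 had left the level of the other fetal libraries without reaching the postnatal range. Igfbp2, which binds insulin-like growth factors in plasma, was the most abundant of the 10 largest rises, at 27.4, 91.7 and 861 and then 5911, 3143 and 3988 FPKM, a change of 5.00 (SE 1.05, limma adjusted p = 0.0282). The other 5 were Serpina3m (5.71), Mettl7b (5.62), Cyp2e1 (5.60), Cyp3a44 (5.14) and Cyp1a2 (5.00). Apoa4, Pck1, Mettl7b, Cyp3a44 and Cyp1a2 kept their call with each library left out. Cyp2e1 lost it without E17.5, Serpina3m without E16.5 or E17.5, Cyp4a14 without E16.5, E17.5 or D1, Apoa5 without E16.5, E17.5, D1 or D5, and Igfbp2 without any 1 of the libraries other than E18.5.

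Ndufa4l2 (chromosome 10, 127509304 to 127517154), a mitochondrial protein known to be induced by low oxygen, gave the smallest adjusted p of the named genes. It stood at 65.6, 64.5 and 74.3 FPKM before birth and at 3.2, 3.08 and 3.42 after, a change of -4.03 (SE 0.16, limma adjusted p = 6.32e-05). The groups were tight and 1 step apart. Scd2, a fatty acid desaturase, showed the same kind of step, from 188, 222 and 196 to 9.98, 13.2 and 10.8, a change of -4.04 (SE 0.18, limma adjusted p = 0.000113). Rbp2, a cellular retinol-binding protein best known from the intestine, measured 153, 445 and 407 and then 29.5, 15.6 and 17.7, a change of -3.85. A2m, a broad protease inhibitor of plasma, was still climbing before birth at 104, 201 and 372 and stood at 14.3, 10.6 and 9.94 afterwards, a change of -4.00. Slc2a1, the glucose carrier of red cells and many fetal tissues, was instead on its way down over the whole window, at 339.8, 226 and 79.4 and then 20.4, 10 and 9.2, a change of -3.78. Hif3a, of the hypoxia-inducible factor family, followed a similar path from 41.6, 24.3 and 16.5 to 2.41, 0.876 and 0.474. The remaining members of the 10 largest falls were Xist (-4.24), the embryonic alpha-globin Hba-x (-3.89), the amino acid carrier Slc36a2 (-3.86) and Rnu2-10 (-4.75). Rnu2-10 belongs to the U2 small nuclear RNA family, whose copies share sequence, and was listed at 0 on D1 and D5 and at 24.1 on D3. Slc2a1 lost its call without E17.5, and Rnu2-10 without E16.5, E17.5, D1 or D5, while the other 8 kept theirs.

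**Figure D2:**
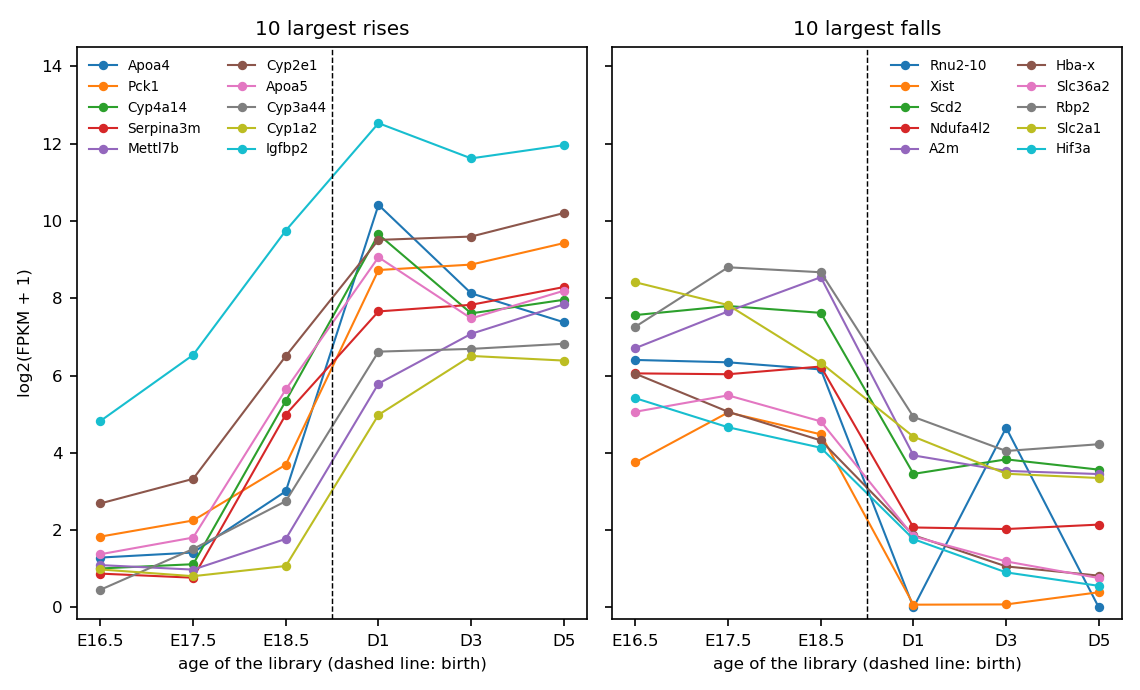
Level in each of the 6 libraries (log2(FPKM + 1)) of the 10 genes with the largest rises (left) and the 10 with the largest falls (right), 1 line per gene with a point per library and the dashed line at birth. Several rises had begun by E18.5 (Igfbp2, Cyp2e1, Apoa5), whereas Scd2 and Ndufa4l2 were level up to E18.5 and level again from D1.

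**Figure D3:**
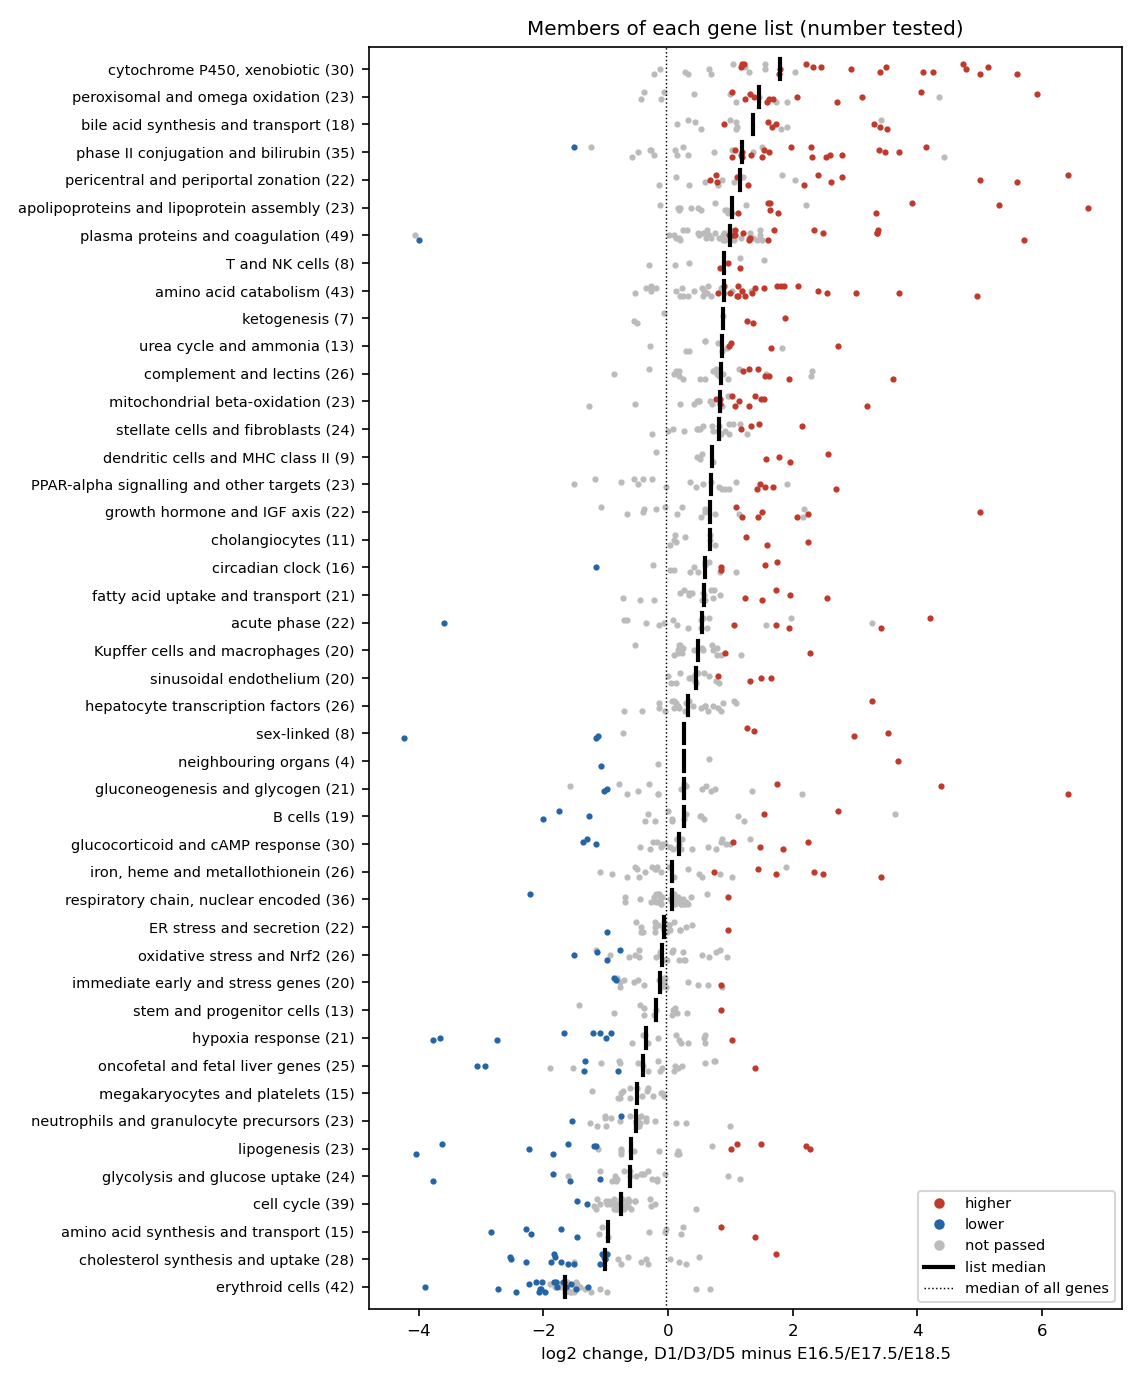
Log2 change of every tested member of the 45 gene lists (points, red higher, blue lower, grey not passed), with the list median as a bar and the median of all genes (-0.04) as a dotted line. Cytochrome P450 genes lie at the top (median 1.79) and erythroid genes at the bottom (median -1.66).

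All list counts below stand beside 6.07% of all genes risen and 3.5% fallen. In each list where no gene was called in 1 direction, 0 to 3 members had an unadjusted limma p under 0.05 in that direction. Glucose genes passed in both directions. In the list for gluconeogenesis and glycogen, 3 of 21 tested members rose and 2 fell (median 0.25), against 6.07% and 3.5% of all genes. Beside Pck1, these were G6pc, which releases free glucose, at 0.984, 4.03 and 64 before birth and 104, 180.1 and 309.7 after (4.39), and Got1, the cytosolic aspartate aminotransferase (1.75). The mitochondrial isoenzyme Pck2 fell by 1.03 and the alanine aminotransferase Gpt2 fell by 0.98, and neither passed without E16.5, E17.5, D1 or D3. G6pc had left the level of the other fetal libraries by E18.5, and it lost its call when any library other than E18.5 was left out, while Got1 lost it without E16.5 or E17.5. Of 24 glycolysis and glucose uptake genes none rose and 4 fell (median -0.61): Slc2a1, the hexokinase Hk1 (-1.85), Pgam1 (-1.58) and Aldoc (-1.10). With 1 library left out the falls numbered from 0 without E17.5 to 7 without E18.5. In 16 of the 24 every postnatal library was below every fetal one, against 16.8% of all genes. Gapdh was the most abundant member of the glycolysis list and Ldha that of the gluconeogenesis list. They measured 1439 and 1486 FPKM before birth and 1094 and 1361 after on average and did not pass (adjusted p = 0.275 and 0.7 by limma).

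Many fat oxidation genes rose and none fell. Of 23 genes of mitochondrial beta-oxidation, 11 rose and none fell (median 0.83), against 6.07% and 3.5% of all genes. Cpt1a, the gate for long-chain fatty acids into mitochondria, stood at 6.17, 9.42 and 26.9 FPKM and then at 149.6, 73.4 and 142, a change of 3.20 (SE 0.50, limma adjusted p = 0.0112). Its postnatal libraries were all at least as high as 73.4, with D3 the lowest. The carnitine carrier Slc25a20 (1.49), Cpt2 (1.15), the dehydrogenases Acadvl (1.03) and Acadl (1.08), Hadha (0.83), Eci1 (0.78), Eci2 (1.39), Decr1 (1.31), the electron carrier Etfdh (1.54) and the carnitine uptake protein Slc22a5 (0.83) were the others. In 18 of the 23 the ranges did not overlap upwards, against 19.1% of all genes. Acaa2, the most abundant member, measured 465, 518 and 677 and then 759, 650.4 and 878, with overlapping ranges. The count ran from 0 without E17.5 to 12 without E18.5, and was 5 with the spread shared over all 15 libraries.

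Peroxisomal and omega oxidation showed larger changes, with 12 of 23 genes rising and none falling (median 1.46). Crot, which carries shortened acyl groups out of peroxisomes, measured 18.4, 31.1 and 19.4 and then 188, 150.4 and 283, a change of 3.11 (SE 0.30, limma adjusted p = 0.00255), and kept its call with each library left out. The bifunctional enzyme Ehhadh (2.07), the thiolases Acaa1a (1.02) and Acaa1b (2.71), Cyp4a31 (4.06), Scp2 (1.69), Abcd3 (1.62), Acot12 (1.58), Decr2 (1.38), Hsd17b4 (1.31) and Aldh3a2 (1.23) also rose beside Cyp4a14. Members of the Cyp4a cluster and the Acaa1 pair are near copies, so reads may be split between them. Without E17.5 the count was 1 and without E18.5 it was 16. Among genes of ketone body formation Bdh1, which makes hydroxybutyrate, rose by 1.87 and lost its call without E17.5.

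For uptake of fatty acids, 5 of 21 genes rose and none fell (median 0.57). Fabp1, the liver fatty acid-binding protein, was among the most abundant transcripts at 487, 792 and 2419 and then 7471, 4275 and 5973 (2.56), and Slc27a2 (1.96), Slc27a5 (1.73), the lipid droplet protein Plin2 (1.51) and Lipc (1.23) were the others. The count was 0 without E16.5, E17.5 or D5. Of 23 further genes of PPAR-alpha signalling, 5 rose (median 0.69), from 1 without E17.5 to 11 without E18.5. Fgf21, a fasting hormone, was at or near the floor before birth at 0, 0.136 and 1.01 and at 19.3, 3.3 and 6 after. Pparg, better known from fat tissue, measured 1.31, 1.36 and 2.11 and then 6.78, 6.14 and 9.03 (1.68) and kept its call throughout. Gpd1 (1.55), Creb3l3 (1.47) and the glycerol kinase Gyk (1.43) completed the set.

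**Figure D4:**
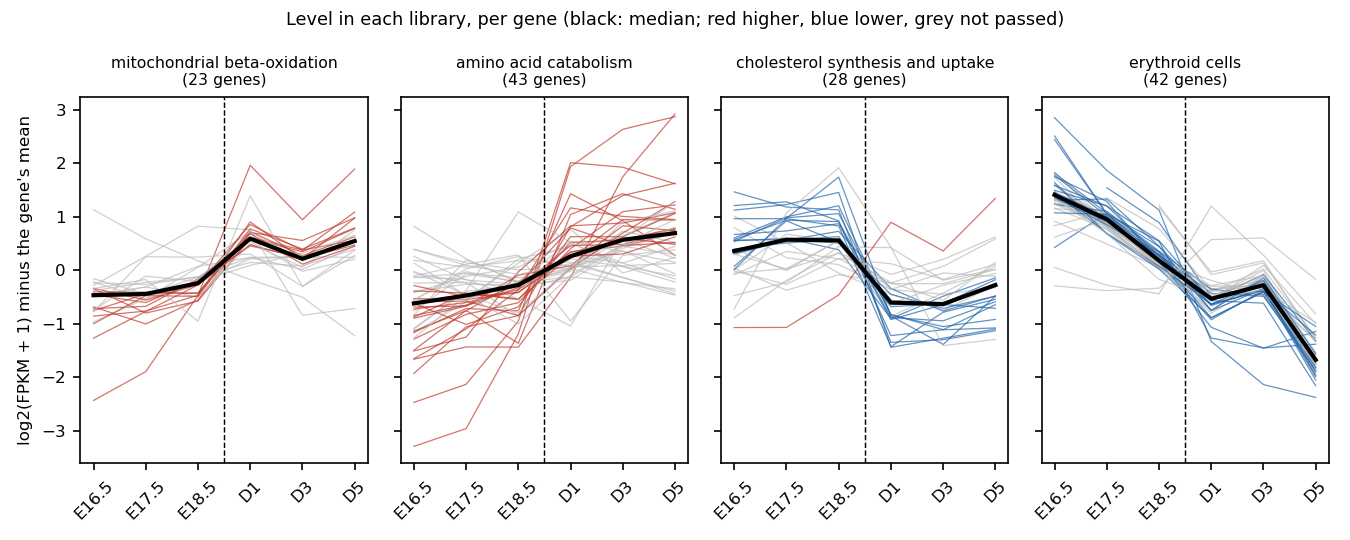
Log2(FPKM + 1) minus the gene's mean over the 6 libraries, 1 thin line per tested gene (red higher, blue lower, grey not passed) and the median as a thick line, for 4 lists. Beta-oxidation and cholesterol genes take a step between E18.5 and D1. Amino acid catabolism also rises there and goes on, with summed FPKM of 3312 at E18.5, 5728 at D1, 6449 at D3 and 6785 at D5. Erythroid genes decline from E16.5 to D5 but not at every age, since Klf1, Slc4a1 and Alas2 summed to 558 at D1 and 684 at D3.

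Lipogenesis genes moved in both directions. Of 23 genes, 7 fell and 5 rose (median -0.59). The fallen members supply acetyl-CoA (Acly -1.19, Acss2 -2.23), build and lengthen palmitate (Fasn -1.85, Elovl6 -1.61), desaturate its products (Scd1, Scd2) or start glycerolipid synthesis (Gpam -1.15). Scd1 stood at 32.2, 53.9 and 74.6 and then at 3.04, 3.05 and 3.43, a change of -3.63 (SE 0.29, limma adjusted p = 0.000938). The 2 desaturases shared the postnatal low but differed later, since Scd1 reached up to 545 FPKM in the libraries of W1 to W8 while Scd2 stayed at or below 6.73. The risen members were Elovl2 (2.27), Elovl5 (2.22) and Fads2 (1.50), enzymes of long polyunsaturated fatty acids, the glycerolipid enzyme Agpat2 (1.11) and the transcription factor Mlxipl (1.01). Without E17.5, 4 fell and none rose, and without E18.5 9 fell and 5 rose.

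Genes of cholesterol synthesis fell from its first to its last steps. Of 28 genes 15 fell and 1 rose (median -1.01), and 18 had every postnatal library below every fetal one, against 16.8% of all genes. The falls included genes from the first steps (Acat2 -1.02, Pmvk -1.61, Mvd -1.87, Idi1 -1.01) through squalene (Fdps -2.54, Fdft1 -1.06, Sqle -1.10, Lss -2.27) to the last (Cyp51 -1.01, Sc4mol -0.99, Nsdhl -1.52, Dhcr7 -1.84). Fdps stood at 327, 351 and 411 and then at 54.5, 61.5 and 69.3 (SE 0.20, limma adjusted p = 0.000926). Insig1 fell by 1.82 while its relative Insig2 rose by 1.73. Fdps and Lss kept their call with each library left out, and 7 members were lower without E17.5 and 17 without E18.5. With the spread shared over all 15 libraries, 2 were lower.

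Export and handling of lipid went the other way. Of 23 genes of apolipoproteins and lipoprotein assembly, 9 rose and none fell (median 1.03), from 3 without E17.5 or D5 to 14 without E18.5. Beside Apoa4 and Apoa5 these were Apob (1.64), Apoc1 (1.64), Apoc4 (1.60), Apoe (1.77), Lcat (1.12) and the sterol exporters Abcg5 and Abcg8 (3.33). Abcg5 stood at 0.621, 0.473 and 2.4 FPKM and then at 16.2, 36.2 and 42, a change of 3.91, and kept its call throughout. Apoa1 measured 8535, 9965 and 15877 and then 27535, 20160.0 and 20816 and did not pass (1.03, limma adjusted p = 0.0733). In bile acid synthesis and transport 7 of 18 rose (median 1.36), from 2 without E17.5 to 15 without E18.5. They were the uptake carrier Slco1b2 (3.40), the basolateral exporter subunit Slc51b (3.31), the nuclear receptor Nr0b2 (3.52), Slc27a5, Amacr (1.67), Akr1d1 (1.60) and the phospholipid floppase Abcb4 (0.90). Nr0b2, a repressor known to answer to bile acids, measured 0.512, 0.438 and 4.23 and then 31.6, 17.2 and 27.9. Slc51b kept its call with each library left out, Nr0b2 lost it without E17.5, and Slco1b2 lost it when any library other than E18.5 was left out.

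Enzymes of amino acid breakdown were among the rises and those of serine synthesis among the falls. Of 43 catabolic genes 20 rose and none fell (median 0.90), and 28 had ranges that did not overlap upwards, against 19.1% of all genes. Tat, tyrosine aminotransferase and a classic glucocorticoid- and cAMP-responsive gene, stood at 1.45, 2.08 and 9.5 and then at 90.5, 147 and 174, a change of 4.96 (SE 0.52, limma adjusted p = 0.00304). Agxt, alanine-glyoxylate aminotransferase, measured 17.2, 22 and 51.1 and then 404, 381 and 307 (3.70). Tdo2, the tryptophan dioxygenase, was slower, at 0.322, 0.549 and 0.545 and then 2.81, 13 and 30.6 (3.02), and reached 34.4 to 501 in the libraries of W1 to W8. Others were Sds (2.41), Mat1a (2.08), Cdo1 (1.86), Amdhd1 (1.54) and Hgd (1.40). Tat and Agxt kept their call with each library left out, Tdo2 lost it without E16.5, E17.5 or D3, and the list's count ran from 4 without E17.5 to 23 without E18.5. Among 15 genes of amino acid synthesis and transport 5 fell and 2 rose (median -0.96). The whole serine pathway from glycolysis was among the falls, with Psat1 at 301, 239.6 and 191 and then 31.9, 42.3 and 26 (-2.83), Psph at -2.29 and Phgdh at -2.21, beside Asns (-1.47) and the glutamine carrier Slc1a5 (-1.72). The system A and N carriers Slc38a4 (1.40) and Slc38a3 (0.85) rose. Falls numbered 1 without E17.5 and 8 without E18.5, and both rises were lost when any library other than E18.5 was left out. In the urea cycle 4 of 13 rose (median 0.86): the ornithine carrier Slc25a15, at 14.6, 13.4 and 17 and then 39.2, 53 and 56.6 (1.65), the glycerol and urea channel Aqp9 (2.73), Asl (1.00) and Slc25a13 (0.98). Slc25a15 kept its call throughout, and the count was 1 without E16.5, E17.5, D3 or D5. Ass1, the most abundant member, measured 648, 666 and 760.4 and then 457, 710.2 and 553.

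Bhmt, which remethylates homocysteine with betaine, was the most abundant of the catabolic list at 126, 231 and 266 and then 845, 1267 and 1485, a change of 2.56 (SE 0.34, limma adjusted p = 0.00654). Its start and that of Rbp2 are shown because they hold the same letters, TGACCTTTG on either strand, which are part of the direct repeat bound by receptors such as HNF4-alpha and PPAR-alpha, while the genes moved in opposite directions. Sequences are from RefSeq (GRCm38.p6), read 5′ to 3′ on the gene's strand from 250 bases before to 50 after the start, with matches in capitals (also AGATAA or TTATCT, the letters of a GATA site). Rbp2 lies at chr9:98490287-98490586 on the plus strand, and its match begins 58 bases before the start. Bhmt lies at chr13:93637709-93638008 on the minus strand, and its match begins 50 bases before.
Rbp2: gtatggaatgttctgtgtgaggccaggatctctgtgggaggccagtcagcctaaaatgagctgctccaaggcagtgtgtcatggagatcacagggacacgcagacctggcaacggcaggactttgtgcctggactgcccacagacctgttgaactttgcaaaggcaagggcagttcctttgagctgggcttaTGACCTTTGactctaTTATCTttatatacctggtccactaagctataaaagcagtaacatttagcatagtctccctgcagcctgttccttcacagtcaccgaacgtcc
Bhmt: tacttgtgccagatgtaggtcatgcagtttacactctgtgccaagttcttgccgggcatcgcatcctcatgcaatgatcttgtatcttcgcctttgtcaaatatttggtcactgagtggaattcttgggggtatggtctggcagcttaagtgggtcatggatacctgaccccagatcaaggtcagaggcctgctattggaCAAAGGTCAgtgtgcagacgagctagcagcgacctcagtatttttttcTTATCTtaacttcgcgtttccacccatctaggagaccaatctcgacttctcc
Of 6131 tested genes with such a window, 0.408% held TGACCTTTG, against 5 of 400 risen genes (1.25%) and 3 of 206 fallen ones (1.46%). The cAMP response element TGACGTCA was in 3.49% of all windows, 1.25% of the risen and 3.4% of the fallen. The letters TCACNCCAC, part of a sterol response element, were in 1.14% of all, 1.25% of the risen and 2.43% of the fallen, and in 1 of 15 windows of cholesterol genes. A match describes these letters only.

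Genes that handle foreign compounds gave the highest median of the 45 lists. Of 30 cytochrome P450 and related genes 18 rose and none fell (median 1.79). The ranges of 22 did not overlap upwards, against 19.1% of all genes. Cyp1a2, which oxidizes caffeine and aromatic amines, stood at 0.978, 0.753 and 1.1 and then at 30.6, 90 and 82.7, a change of 5.00 (SE 0.38, limma adjusted p = 0.000926). Cyp2e1, which oxidizes ethanol and acetone, measured 5.47, 9.04 and 89.8 and then 728, 773 and 1179 (5.60). Cyp3a44 went from 0.375, 1.85 and 5.73 to 97.3, 102 and 112 (5.14), and was at 0.24 to 117 in the libraries of W1 to W8. The other rises were spread over the 2A to 2J, 3A and 4B families, from Cyp3a41a (4.78), Cyp2b9 (4.73) and Cyp3a25 (4.25) to Cyp4b1 (1.18) and Cyp2d22 (1.17). Members of the Cyp2c, Cyp2d and Cyp3a clusters are near copies and their values are uncertain. The count was 4 without E17.5 and 25 without E18.5. Nr1i3, the receptor CAR that controls many of these enzymes, was the only member of 26 hepatocyte transcription factors to pass, at 1.92, 2.3 and 14.4 and then 51.2, 40.5 and 60.5 (3.27). It lost its call without E16.5 or E17.5, and 8 of the 26 passed without E18.5. With all 6 libraries, 1 of 26 stands beside 6.07% of all genes.

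Of 35 genes of phase II and bilirubin handling 19 rose and 1 fell (median 1.19), from 3 without E17.5 to 21 without E18.5. Inmt, a methyltransferase, stood at 1.09, 1.35 and 2.02 and then at 25.4, 27 and 107 (4.13) and kept its call throughout. The carboxylesterase Ces1c measured 17.6, 34.3 and 71.9 and then 273, 454 and 845 (3.70), and Ugt2b1 (3.39), Ephx2 (2.59), Sult1d1 (2.53), Ephx1 (2.31) and Ugt2b5 (2.30) were among the others. The single fall was Blvrb, a biliverdin reductase also abundant in red cells, at 1163, 761 and 507 and then 276, 333 and 209 (-1.51). Ces1c lost its call without E17.5, and Blvrb when any library other than E18.5 was left out.

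Of 22 genes that mark the position of hepatocytes between portal and central vein, 12 rose and none fell (median 1.15), from 3 without E17.5 to 16 without E18.5. The rises included both ends. Pericentral genes rose (Axin2 1.29, Notum 2.19, Rnf43 0.67, Nkd1 0.77, Lect2 2.79, Gulo 2.62, with Cyp2e1 and Cyp1a2), and so did the periportal genes Pck1, Sds (2.41), Hal (1.10) and Ctsc (0.78). Bulk libraries hold no positions.

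Of 49 plasma protein and coagulation genes 15 rose and 1, A2m, fell (median 0.99). The lowest change of the list, -4.06, was that of a member that did not pass. The ranges of 34 did not overlap upwards, against 19.1% of all genes. Hpx, hemopexin, which binds free heme, stood at 399, 405 and 572 and then at 1937, 2655 and 3127, a change of 2.48 (SE 0.27, limma adjusted p = 0.00327). Hp, haptoglobin, which binds free hemoglobin, measured 294, 641 and 1639 and then 3773, 3153 and 3350.2 (2.34). Serpina3m measured 0.835, 0.706 and 30.8 and then 201, 227 and 312, with Serpina7 (3.35), Hrg (3.35), F5 (1.70) and F7 (1.61) among the others. Fetub had a failed estimate at E18.5 and rested on 5 libraries (3.37). Rises numbered 3 without E16.5 or E17.5 and 31 without E18.5, and Hpx kept its call each time while Hp lost it when any library other than E18.5 was left out. Alb was estimated at 9047 and 23414 FPKM at E16.5 and E17.5 and at 27457 on D1 and had failed estimates at the other 3 ages, so its change was not resolved (0.92, limma adjusted p = 0.414). Of 26 complement and lectin genes 7 rose (median 0.85), among them Mbl2 (3.61), Clu (1.95), C8a (1.62) and C3, at 405, 553 and 959 and then 1290.5, 1770.0 and 2408 (1.56). Their count was 0 without E17.5 and 12 without E18.5.

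Of 22 acute phase genes 5 rose and 1 fell (median 0.55). Hamp, which encodes hepcidin, the hormone that blocks iron export, stood at 25.2, 131 and 148 and then at 2065, 627 and 481, a change of 3.42. Serpina3n measured 7.73, 16.9 and 78.8 and then 409.9, 354 and 538 (4.21), and Serpina3g (1.94), Hamp2 (1.74) and the receptor chain Il6st (1.06) also rose. Saa3, a serum amyloid gene, went the other way at 43, 188 and 105 and then 3.92, 6.47 and 12.6 (-3.59). Hamp and Hamp2 are near copies, and Hamp lost its call without E16.5, E17.5, D1 or D3, while Serpina3n and Saa3 lost theirs without E17.5. No acute phase gene was called higher or lower without E17.5, and 9 were higher and 2 lower without E18.5. Among 26 iron, heme and metallothionein genes 6 rose (median 0.06, with a sign that turned with the scaling, down to -0.11): the 2 hepcidin genes, Hpx, Hp, the iron sensor Tfr2 (1.45) and Slc30a1 (0.74). The count was 1 without E17.5 and 8 without E18.5. Trf, transferrin, the most abundant, measured 9382, 12534 and 18882 and then 10798, 12762 and 16608.

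Hormone axes changed in a few members each. Of 22 genes of growth hormone and IGF signalling 7 rose (median 0.68), from 0 without E16.5, E17.5 or D3 to 11 without E18.5. Igf1, the growth factor itself, stood at 5.25, 5.13 and 7.11 and then at 12.5, 38 and 61 (2.24), with the acid-labile subunit Igfals close beside it at 7.47, 6.38 and 10.4 and then 15.4, 44.6 and 70 (2.07). Both were low on D1 and rose through D5, unlike Igfbp2, which was highest on D1. The receptor Ghr (1.44), Igfbp7 (1.51), Igfbp5 (1.19) and Igfbp4 (1.08) rose too. Of 30 glucocorticoid- and cAMP-responsive genes 4 rose and 3 fell (median 0.17). Sgk1, a kinase induced by glucocorticoids, measured 6.84, 5.97 and 7.48 and then 19.6, 30.3 and 31.8 (1.84) and kept its call throughout. Hsd11b1, which regenerates active glucocorticoid inside the cell, was already climbing at 15.3, 52.8 and 72.1 and stood at 150.3, 194 and 234 after birth (2.25). Creb3l3 and Nr4a1 (1.04) rose, and Per1 (-1.16) and Foxo3 (-1.36) were among the falls. Without E17.5 or D5 the list held 1 rise, and without E17.5 no fall.

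In the circadian clock 4 of 16 genes rose and 1 fell (median 0.59). Nr1d2, a repressor of the clock, stood at 0.651, 0.857 and 0.632 and then at 4.67, 2.83 and 4.77 (1.55) and kept its call throughout. The output factors Dbp (1.74) and Hlf (0.85) and Nr1d1 (0.85) rose, and Per1 fell from 11.3, 10.7 and 10.5 to 5.81, 3.36 and 3.98. Dbp lost its call without E17.5, Per1 without E17.5 or D3, and the rises numbered 1 without E17.5. The hour at which livers were taken is not given in the sources used here, so the hour and the period cannot be told apart for these genes. Of 20 immediate early and stress genes 1, Klf2, rose (0.86) and 2, Btg2 (-0.86) and Myc (-0.84), fell. Without E16.5, E17.5, D3 or D5 none of the 3 passed. Of all genes 6.07% rose and 3.5% fell.

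The fetal program was only partly down by D5. Of 25 oncofetal and fetal liver genes 5 fell and 1 rose (median -0.41). Dlk1, an imprinted gene of fetal hepatoblasts with a second entry off the chromosomes that makes its value uncertain, stood at 474, 259 and 104 and then at 38.9, 27.2 and 18.5 (-3.07). Spink3, a protease inhibitor, measured 239, 518 and 186 and then 16.8, 57.6 and 49.3 (-2.93). The RNA-binding protein Igf2bp1 (-1.34), Grb10 (-1.33) and Hmga2 (-0.80) fell too. Afp, the fetal counterpart of albumin, measured 9523, 13172 and 11514 and then 8884, 15390.0 and 12868, a change of 0.09 (SE 0.30, limma adjusted p = 0.846), or -0.93 after quantile normalization. Its ranges overlapped, and its lowest level in W1 to W8 was 35.2. Without E17.5 no member passed, and Spink3 also lost its call without E16.5.

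Genes known to answer to low oxygen were among the falls. Of 21 genes 8 fell and 1 rose (median -0.36), with 3 falls without E17.5 and 8 without E18.5. Ndrg1 stood at 118, 131 and 147 and then at 17.7, 19.2 and 19.5, a change of -2.75 (SE 0.17, limma adjusted p = 0.000631). Like Ndufa4l2, which was not in the list, it was level on both sides with 1 step between. Hif3a, Slc2a1, the collagen hydroxylase P4ha2 (-1.67), the oxygen sensor Egln1 (-1.20), Bnip3 (-1.10), Pdk1 (-0.99) and Ddit4 (-0.92) were the other falls, and Epas1, which encodes HIF-2-alpha and is abundant in endothelium, rose by 1.02. Hif3a and Ndrg1 kept their call with each library left out. The list of nuclear genes of mitochondrial respiration showed 1 rise, Sucla2, a subunit of a citric acid cycle enzyme (0.97, called only with all 6 libraries or without E18.5), and 1 fall among 36, with a median of 0.06 whose sign turned with the scaling (down to -0.09). The fall was Cox7a1, the muscle-type subunit of cytochrome oxidase, at 19.3, 19.7 and 44.2 and then 4.78, 3.46 and 6.36 (-2.22), which kept its call throughout. Of 26 Nrf2 and redox genes 4 fell (median -0.09): Prdx2 (-1.51), which is abundant in red cells, Tkt (-1.14), Gpx3 (-0.98) and Pgd (-0.77), and none of them was called without E16.5, E17.5, D1, D3 or D5. In the list of ER stress and secretion Sel1l rose (0.96) and Atf4 fell (-0.98) among 22, with a median of -0.07. These counts stand beside 6.07% and 3.5% of all genes, and neither gene passed without E16.5, E17.5 or D5.

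Of 42 erythroid genes 19 fell and none rose (median -1.66), and 39 had every postnatal library below every fetal one, against 16.8% of all genes. Alas2, the first enzyme of red cell heme synthesis, stood at 914, 614 and 425 FPKM on the fetal days and at 234, 255 and 98.4 after, a change of -1.78, so it was going down before birth. Slc4a1, which exchanges chloride and bicarbonate in red cells, took the same path from 1364, 710.1 and 434 to 261, 353 and 121 and did not pass (-1.74, limma adjusted p = 0.0649). Klf1, the master regulator of red cell genes, fell by 2.04, and Tspo2 (-2.23), Tmcc2 (-2.12), Icam4 (-2.07), Kel (-2.06), Slc25a37 (-1.97), Nfe2 (-1.83) and Fech (-1.48) were among the others. Embryonic globins fell furthest, with Hba-x at 65.1, 32.4 and 19 and then 2.65, 1.09 and 0.77 (SE 0.44, limma adjusted p = 0.00401), Hbb-y at -2.73 and Hbb-bh1 at -2.44. Hbb-y and Hbb-bh1 have second entries off the chromosomes that make their values uncertain. After birth Hbb-bh1 lay near the floor, at 0.608, 0.227 and 0.525. Adult alpha-globin Hba-a1 was estimated at 89764 at E18.5 and at 38991, 45102 and 16012 after, with failed estimates at E16.5 and E17.5. The count was 1 without E17.5, 37 without E18.5 and 8 with the spread shared over all 15 libraries, and the median kept its sign under all scalings (-1.82 to -1.60).

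Windows of 2 fallen erythroid genes are shown because GATA1 drives red cell genes and the letters AGATAA (or TTATCT) lay before their starts. They were in 7 of 23 erythroid windows (30.4%), against 6.98% of all 6131, 12% of risen and 9.22% of fallen genes. Among the 7, Alas2, Kel and Cpox fell, while Epor, Hbb-bs, Hemgn and Rhd did not pass. In Cpox and Hemgn the match lay after the start. Alas2 lies at chrX:150547167-150547466 on the plus strand, with its match beginning 86 bases before the start, and Kel at chr6:41704276-41704575 on the minus strand, with its match beginning 56 bases before. The matches are in capitals.
Alas2: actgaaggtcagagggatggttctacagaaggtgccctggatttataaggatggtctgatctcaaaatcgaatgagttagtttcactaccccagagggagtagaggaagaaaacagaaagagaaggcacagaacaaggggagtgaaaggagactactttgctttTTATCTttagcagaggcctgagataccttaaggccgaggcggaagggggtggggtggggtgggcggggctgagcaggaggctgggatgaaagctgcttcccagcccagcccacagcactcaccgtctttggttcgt
Kel: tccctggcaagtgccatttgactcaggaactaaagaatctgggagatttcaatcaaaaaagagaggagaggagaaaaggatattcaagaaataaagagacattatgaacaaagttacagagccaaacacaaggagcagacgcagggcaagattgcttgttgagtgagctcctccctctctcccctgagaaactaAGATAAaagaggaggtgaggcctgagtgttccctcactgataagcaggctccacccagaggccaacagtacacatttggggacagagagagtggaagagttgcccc

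Few genes of other blood lineages passed. No gene of 15 for megakaryocytes and platelets passed (median -0.50), and Pf4, a platelet chemokine, measured 114, 72.9 and 101 and then 100.4, 51.7 and 32. Pf4 has a second entry off the chromosomes that makes its value uncertain. Of 23 neutrophil genes 2 fell, Prtn3 (-1.55) and Csf3r (-0.75), with a median of -0.51, against 3.5% of all genes. Among 13 stem and progenitor genes only Hlf passed, as a rise, against 6.07% of all genes. In B cells the surrogate light chains of precursors fell, with Igll1 at 18.4, 27.8 and 22.5 and then 8.93, 4.42 and 5.48 (-1.74), Vpreb1 at -2.01 and Vpreb2 at -1.27. Genes of more mature cells, the light chain constant region Iglc2 (0, 0 and 2.01, then 6.23, 17.2 and 5.69) and Ms4a1 (1.54), rose. The light chain constant region Igkc, the most abundant member, measured 1.68, 16.3 and 67.4 and then 247, 226 and 110. It did not pass (3.65, limma adjusted p = 0.0588). The pan-B gene Cd79a stood at 14.1, 19.1 and 24.6 and then at 31.7, 24 and 15.1, with overlapping ranges. The part of B cell numbers in these changes was not tested. Igll1 and Vpreb1 lost their call without E17.5, Iglc2 without E16.5 or E17.5, Prtn3 and Csf3r without E16.5, E17.5, D3 or D5. Cell cycle genes had a median of -0.76 with 2 of 39, E2f1 (-1.30) and Ube2c (-1.46), passing, against 3.5% of all genes fallen. Neither passed without E16.5, E17.5, D1, D3 or D5, and 29 of the 39 were lower without E18.5. Ube2c measured 618, 502 and 308 and then 189.7, 229 and 105, a decline with the erythroid genes whose part in it was not tested.

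Some genes of cells other than hepatocytes and blood precursors rose, and none fell on the lists for dendritic cells, macrophages, endothelium, stellate cells, bile ducts and T and NK cells. Of 9 genes of dendritic cells and MHC class II 4 rose (median 0.71), from 2 without E17.5 to 5 without E18.5. Cd74, the invariant chain of MHC class II, stood at 9.74, 8.12 and 8.9 and then at 45, 67.5 and 63.1, a change of 2.57 (SE 0.20, limma adjusted p = 0.000938). H2-Aa (1.96), H2-Eb1 (1.78) and H2-Ab1 (1.58) rose with it, and H2-Aa and H2-Eb1 have second entries off the chromosomes that make their values uncertain. Vsig4, of resident macrophages, measured 1.61, 6.54 and 13.1 and then 25.5, 29.2 and 39.2 (2.28), while Cd5l, another marker of those cells, measured 99.5, 83.8 and 88.8 and then 95.1, 95.5 and 117.8. Vsig4 and Id3 were the 2 of 20 Kupffer cell genes to pass (median 0.48), against 6.07% of all genes risen. Neither passed without E17.5, D1, D3 or D5. In sinusoidal endothelium 4 of 20 rose (median 0.45): Fcgr2b (1.65), Clec4g (1.49), Dnase1l3 (1.31) and Kdr (0.79), with none without E16.5, E17.5, D3 or D5. In stellate cells and fibroblasts 4 of 24 rose (median 0.82), with Eln, elastin, at 10.7, 9.09 and 6.24 and then 27.3, 38.3 and 65.1 (2.14), Postn (1.46), Cxcl12 (1.32) and Loxl1 (1.17). None passed without E17.5. Bile duct genes gave 3 of 11, with Krt19 at 2.1, 3 and 1.34 and then 7.64, 7.89 and 9.39 (1.59), Spp1 (2.25) and Krt18 (1.25), which hepatocytes also express. Krt19 kept its call throughout and was the 1 of the 3 to pass without E17.5. Of 8 tested T and NK cell genes 3 rose from low levels (median 0.90), Cd3g (1.16), Il2rb (0.97) and Klrd1 (0.84), with none without E17.5. Of 4 tested genes of neighbouring organs 1 rose and 1 fell. The fall was Cela1, a pancreatic elastase, at 17.2, 18.1 and 19.2 and then 11.8, 6.48 and 6.84 (-1.08), which lost its call without E16.5, E17.5, D3 or D5. Fabp2, the intestinal fatty acid-binding protein, rose from 2.48, 2.85 and 5.49 to 55.3, 34.1 and 92.3 (3.68, called with each library left out), while Vil1, a defining gene of gut epithelium, stayed between 0.150 and 0.861 FPKM.

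The step at birth was then set against the step before it. For each gene the change from E16.5 to E18.5 into D1 to D5 was compared with the change from E12.5 to E15.5 into E16.5 to E18.5, in a fit to 10 libraries. The step at birth was higher in 98 of 13245 genes (0.74%) and lower in 164 (1.24%), with a median difference of 0.23 over all genes, or 0.09 after quantile normalization. Without E17.5 the counts were 15 and 34. Both steps share the libraries of E16.5 to E18.5, so a gene high in those alone has a large difference by construction. Among the named genes the largest positive difference was that of Apoa4 (6.31). Pck1 moved by 0.45 in the earlier step and by 6.42 at birth, a difference of 5.96 (SE 0.77, limma adjusted p = 0.00301), and Mettl7b (5.55), Cyp1a2 (4.85) and the retinol dehydrogenase Rdh9 (4.39) followed. On the other side Rbp2 had risen by 4.94 before it fell by 3.85, a difference of -8.79 (SE 0.78, limma adjusted p = 0.000445), followed by the water channel Aqp8 (-8.14), A2m (-7.84), Saa3 (-7.68) and Ndufa4l2 (-7.49). Of these 10, Apoa4 lost its call without E16.5 or E17.5 and A2m without E17.5, while the other 8 kept theirs. By list, 11 of 28 cholesterol genes, 6 of 21 hypoxia genes, 6 of 23 lipogenesis genes, 5 of 21 for gluconeogenesis and 5 of 24 neutrophil genes were lower, and 5 of 23 zonation genes were higher. None of the 42 erythroid genes and none of the 23 beta-oxidation genes passed limma's adjusted threshold, while at an unadjusted p under 0.05 the erythroid list had 0 higher and 5 lower and the beta-oxidation list 6 higher and 2 lower.

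Among genes with a value at all 15 ages and a mean of at least 10 FPKM on the last fetal days, predicted genes aside, 10 had each of E16.5, E17.5 and E18.5 at least 2-fold above every earlier fetal and every postnatal-day library. The rule was chosen after values were seen. The genes were A2m, Aqp8, Ggt1, Igll1, Maff, Ndrg1, Ndufa4l2, Rbp2, Saa3 and Vpreb1. Rbp2 measured 5.44, 7.04, 8.49 and 18.3 FPKM from E12.5 to E15.5 before its fetal peak of 445 at E17.5. Ggt1, which splits glutathione, measured 2.51 to 7.69 in the earlier fetus, 30.3, 46.6 and 48.5 in the last fetal days and 11.2, 4.13 and 1.71 after birth. Maff, a small Maf factor of the stress response, stood at 6.01 to 9.35, then at 24.9, 38.4 and 28.7, then at 4.54, 3.88 and 3.51. Aqp8 reached 171.6, 361 and 279 and then measured 17, 43.6 and 56.2. This rule did not look at W1 to W8, and Saa3 measured 3236 FPKM at W8. Another rule, not its mirror, set D1 to D5 against E16.5 to E18.5 and W1 to W8. Each postnatal-day library had to be at least 2-fold above every library of both, with a mean of at least 10 FPKM. It was met by 2 genes, the light chain constant regions Iglc1 and Iglc3, which are near copies. They were at 18.8 to 42.7 and 13 to 17.2 FPKM on the postnatal days.

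**Figure D5:**
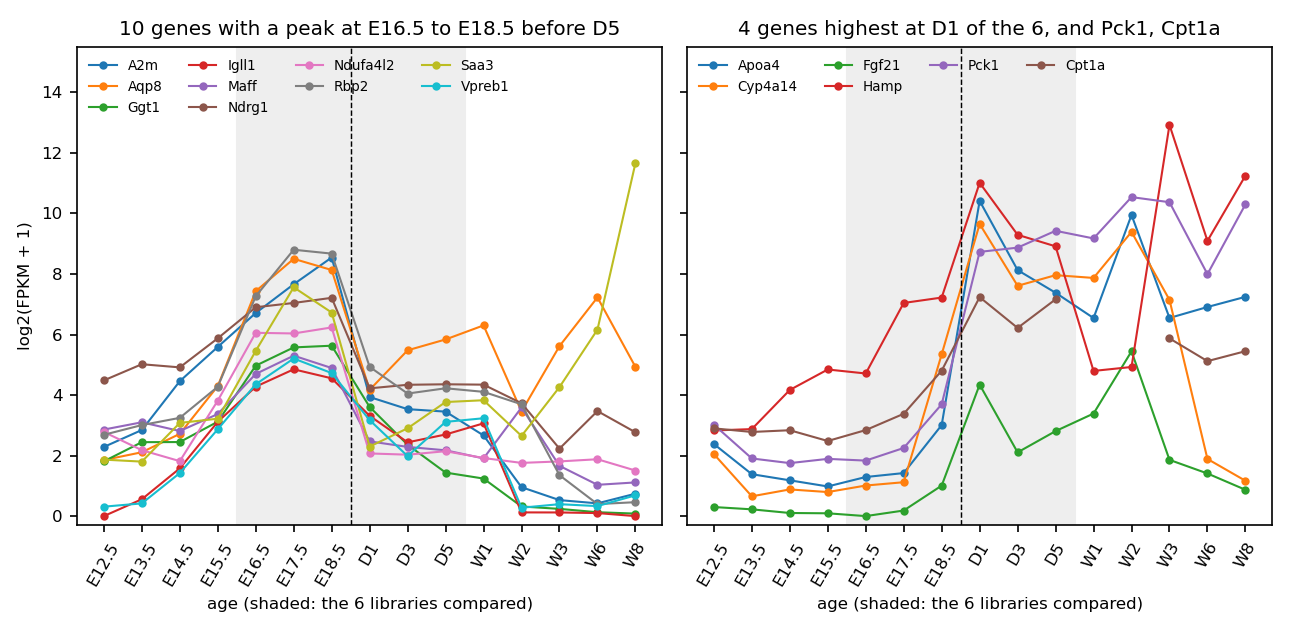
Log2(FPKM + 1) over all 15 ages, 1 line per gene with a point per library, the 6 libraries compared shaded and birth dashed, with a gap at failed estimates. Left, the 10 genes at least 2-fold higher on the last fetal days than on the earlier fetal and the postnatal days, and right, 4 genes highest on D1 among the 6 libraries (Apoa4, Cyp4a14, Fgf21, Hamp) with Pck1 and Cpt1a.

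D1 alone stood apart in 36 genes of the window. Of 5372 genes with at least 10 FPKM on D1, 24 were at least 2-fold above each of the other 5 ages, and of 4137 with at least 10 FPKM in the other 5, 12 were at least 2-fold below. For scale, the same rule gave 24 and 73 at E16.5, 5 and 0 at E17.5, 18 and 1 at E18.5, 3 and 0 at D3 and 17 and 94 at D5. This rule was not tested. Fat and fasting genes were among the 24: Apoa4 (4.90-fold above the next highest age), Cyp4a14 (3.24), Fgf21 (3.22), Cyp4a10 (2.97), Ehhadh (2.62), the lipases' inhibitor G0s2 (2.98) and the lipase Pnpla2 (2.46), and the thioesterases Acot2 and Acot1. Hamp was 3.29-fold above, and Cgref1 4.01-fold, at 2.55, 2.64 and 3.96 before birth, 26.2 on D1 and 4.18 and 6.52 after. Cirbp, a protein known to be induced by mild cold, measured 26.2, 18.3 and 20.6, then 73.7 on D1, then 28.5 and 31.6. The 12 low genes included the imprinted RNA Rian, at 31.9, 49.8 and 25.6, then 5.49, then 23.2 and 22.1, and the cell cycle inhibitor Cdkn1c, also imprinted, at 418, 362 and 159, then 33.6, then 109.3 and 123.9. Pklr, the liver pyruvate kinase, and Srebf1, the regulator of fatty acid synthesis, were low at 28.7 and 18.5 on D1 and at 68.4 and 41.6 on D3. Saa4, Selenbp2 and Spink3 were the others among the 5 lowest relative to the other ages.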

How the data were processed

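The values are FPKM that the authors deposited, with bounds and an estimate status beside each, for 46966 entries in every library, per the file headers. The submitters' processing notes name Bowtie 0.12.2, FastQC and GRCm38.p2 but give no roles. How FPKM were computed, and how genes with failed estimates entered the totals, is not given in the sources used here. Of the entries, 2484 lay off the chromosomes and were dropped, leaving 44482. Values with a failed estimate were set to missing, 12 of them in 8 genes of these 6 libraries (Rrbp1, Alb, Hbb-bt, Hbb-bs, Hba-a1, Hba-a2, Fetub, Dak). Genes with a second entry outside the chromosomes were treated as uncertain. Depth was estimated from the bounds of genes with a single exon over 1000 bases, and covers counting error only.

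A gene was tested where at least 3 of the libraries fitted exceeded 1 FPKM. Its log2(FPKM + 1) values entered limma-trend (limma 3.58.1 under R 4.3.3), with Benjamini-Hochberg adjustment and a threshold of 0.05. The window was fitted to 6 libraries and the difference of steps to 10. Tables and figures used Python 3.11.15. Genes were named by rule: the 10 largest rises and falls with a mean of at least 10 FPKM on the higher side, without predicted genes or repeated symbols; up to 3 passing members and the most abundant tested member of each of 45 lists; the 5 largest differences of steps each way; and the 5 genes most above or below on D1. Other list members appear as those that passed, and further D1 genes were named after their values were seen. The members and the lists, 1061 genes of which 956 were tested, were chosen with earlier results of these data known. Promoter windows came from RefSeq where its start lay within 50 bases of the start in the files. Proteome data were not used here. Some list members are not reported here.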

Additional observations from a re-analysis of the deposited data

How the results depend on the processing

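With 1 library left out, higher calls ran from 101 to 1324 and lower calls from 38 to 1306 across birth, and from 15 to 136 and from 34 to 266 for the difference of steps. Without a filter on low values (24314 genes) 213 genes were higher and 73 lower. With the spread shared over all 15 libraries 468 were higher. With the order of ages as a term 1550 were higher and 1668 lower, and the share of higher calls was 48.2%. With E18.5 alone as the fetal side 19 were higher and 22 lower, and with D1 alone as the postnatal side 26 and 6, where the lone library is assumed to vary like the other group. With globin genes and Alas2 out of the totals 1059 were lower, and with Alb out as well, an alternative chosen after seeing the data, 1026. With E13.5 to E15.5 as the earlier fetal side 60 steps at birth were higher. Under a pseudocount of 0.1, a minimum of 5 FPKM, quantile normalization, median ratios, removal of the GC trend, no mean-variance trend and robust moderation, the counts over all genes stayed within 1.5 times those reported. Counts within lists moved further. Of 90, 53 did so without the filter, 44 with the order of ages as a term and 36 with the shared spread. With globin genes and Alas2 out of the totals 19 did, and with 1 library left out 25 to 58. The minimum of 5 FPKM moved 8, the pseudocount 6 and removal of the GC trend 5. Without the filter 1 erythroid gene fell and no gene of fatty acid uptake rose. With globin genes and Alas2 out of the totals 34 erythroid and 9 glycolysis genes fell. With the shared spread the rises were 7 in peroxisomal oxidation, 11 in amino acid catabolism, 12 in phase II and 7 in zonation. With the GC trend removed 8 stellate genes rose, and with the pseudocount 2 glycolysis genes fell. None of the 129 named genes that passed changed sign under these settings, and 9 of the 24 that did not pass did under at least 1 (Afp, Alb, Atf5, C1qc, Calr, Gpr182, Ldha, Pf4 and Trf). The causes were not tested. Fewer libraries leave fewer degrees of freedom. Depth limits genes near 0.19 FPKM. No paired analysis was possible because the ages carry no replicate numbers and each age has 1 library.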
